A study of Mus musculus with 65 samples.

Results

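The genes described here are 35 genes of the integrated stress response and of serine synthesis, followed in neural stem cells cultured from the subventricular zone of adult mice. They were taken by gene symbol through the Ensembl identifiers of the count table, and since Ddit3 has a pair of features they make up 36 of its 31057 features. All mice carried the iOSKM alleles, through which doxycycline switches on Oct4, Sox2, Klf4 and Myc, and the untreated cultures carried them too. The labels used here do not name the promoter that drives the cassette, and the cultures were primary cells of 9 separate animals. Old animals (25 months, 2 females and 2 males) and young animals (3 to 4 months, 3 females and 2 males) gave 65 libraries of poly(A) RNA in 15 groups. Doxycycline, at 2 µg per ml, was given to old cultures in stem cell medium for 6, 18 and 48 h, to old cultures in differentiation medium for 6, 18 and 48 h, and to young cultures in stem cell medium for 18 h. Untreated cultures of both ages came from stem cell medium after 18 h and from differentiation medium after 6, 18 and 48 h. Stem cell medium holds the growth factors EGF and bFGF, and differentiation medium lacks them. Cells were moved to differentiation medium 18 h after plating. The labels do not say from when the times in stem cell medium are counted, so the media may also differ in time since plating. No untreated group in stem cell medium at 6 or 48 h was analysed here.

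The integrated stress response begins when kinases, among them PERK (Eif2ak3) and GCN2 (Eif2ak4), phosphorylate the translation factor eIF2α. General translation then slows, while the mRNA of the transcription factor ATF4 is translated more. ATF4 pairs with proteins of the C/EBP family and switches on genes for amino acid transport, for asparagine and serine synthesis and for mitochondrial one-carbon metabolism, together with genes that feed back on the response, such as Trib3 and Ppp1r15a. Phgdh, Psat1 and Psph encode the 3 enzymes that make serine from a glycolytic intermediate, and Shmt2 and Mthfd2 carry its carbon into the mitochondrial folate pathway. Since ATF4 is controlled largely through translation, the mRNA of Atf4 is no measure of its protein, and the libraries hold no measure of eIF2α phosphorylation.

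The promoters of the genes are shown first, because ATF4 and C/EBP proteins are known to bind as pairs to elements with the core TGATGNAA. The RefSeq windows for GRCm38.p6, running from 250 bases before to 50 bases after the start of the RNA, were present for 30 of the 35 symbols. On either strand, TGATGNAA (TTNCATCA when read on the other strand) was found in 9 of these 30 symbols, which is 30%, and in 4.51% of all 27025 symbols with a window. The genes were picked as members of this response, which includes targets of ATF4. A higher share than in all symbols therefore comes with the choice and is no test of ATF4 in these cultures. The ER stress element, CCAAT and CCACG with 9 bases between them, was found in 0 of the 30 symbols and in 0.137% of all symbols. Capitals mark the TGATGNAA matches, and each stretch is printed on the strand of its gene. The stretches lie at chr2:119351023-119351082 (plus strand) for Chac1, chr6:7693199-7693258 (minus strand) for Asns, chr1:191183410-191183469 (minus strand) for Atf3, chr7:126625547-126625606 (minus strand) for Nupr1, chr14:55540137-55540196 (plus strand) for Pck2, chr3:50443627-50443705 (minus strand) for Slc7a11 and chr19:27216794-27216853 (plus strand) for Vldlr.
Chac1: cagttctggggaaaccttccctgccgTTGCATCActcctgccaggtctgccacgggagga
Asns: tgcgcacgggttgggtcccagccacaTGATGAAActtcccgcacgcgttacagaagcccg
Atf3: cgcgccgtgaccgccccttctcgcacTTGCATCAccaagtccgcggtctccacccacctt
Nupr1: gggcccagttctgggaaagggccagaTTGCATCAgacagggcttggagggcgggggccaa
Pck2: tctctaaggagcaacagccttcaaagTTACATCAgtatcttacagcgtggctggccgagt
Slc7a11: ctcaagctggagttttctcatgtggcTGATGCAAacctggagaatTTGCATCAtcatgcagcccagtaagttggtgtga
Vldlr: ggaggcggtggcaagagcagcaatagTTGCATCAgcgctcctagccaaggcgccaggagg
With the first base of the RNA as 0, the matches began at position -193 for Chac1, -23 for Asns, -110 for Atf3 and Nupr1, -103 for Pck2, -66 and -47 for Slc7a11 and -200 for Vldlr. Trib3 and Slc1a4 also had a match, at positions 14 and -4. A match describes the letters of the window and is not a measured binding site.

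Library depth ran from 56.5 M to 116.8 M counts, and levels are TMM-scaled CPM, counts over effective library sizes, with the SD over animals. Per kilobase of RNA, the highest mean levels over the 15 groups were those of Phgdh, the first enzyme of serine synthesis, at 134 CPM per kb, and of Psat1, the transaminase that follows it, at 100.3 CPM per kb. The transcription factor Atf3 had 0.630 CPM per kb and the arginine and lysine transporter Slc7a3 had 0.916 CPM per kb. All 10 neural stem cell markers were at 1 CPM or more in each of the 15 groups, and their summed level ran from 5531 to 8732 CPM over the libraries. The sum does not show that each marker held its level. Group means ran from 93.4 to 1312 CPM for Nes, from 1.44 to 116 CPM for Hes5 and from 769 to 5008 CPM for Vim. Those of Sox2 ran from 223 to 361 CPM. Markers of astrocytes (277 to 7163 CPM) and of the oligodendrocyte lineage (1281 to 7401 CPM) were present too, while the summed microglial markers did not exceed 12.3 CPM.

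In 28 of the 36 features the highest group mean was that of old doxycycline cultures at 6 h in stem cell medium. The highest mean was at least 5 times the lowest in 14 features and at least 10 times the lowest in 10. The range was widest for Trib3, a pseudokinase that restrains ATF4, with a ratio of 177 between the highest and the lowest group mean. Mthfd2, a mitochondrial folate enzyme, had a ratio of 81.4, and Slc7a1, a transporter of arginine and lysine, had 40.9. The 3 enzymes of serine synthesis had narrow ranges, with ratios of 1.44 for Psat1, 1.57 for Phgdh and 1.64 for Psph, as had the kinase gene Eif2ak3 with 1.56. The spread between animals was small beside these ranges: the median within-group coefficient of variation was under 10% in 23 features.

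**Figure D1:**
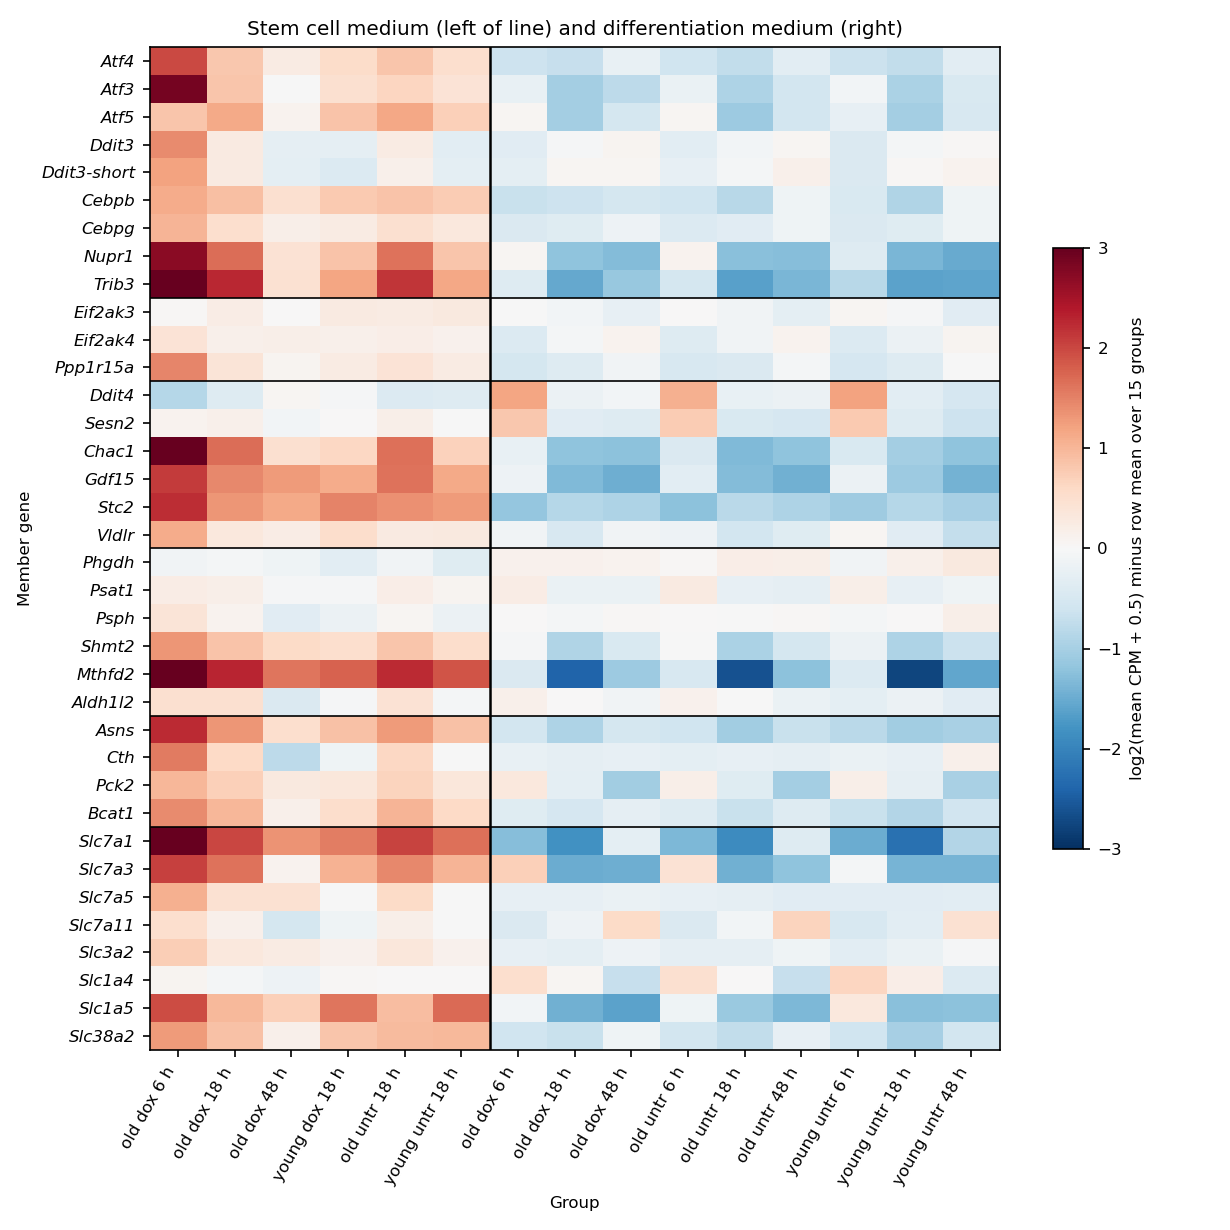
Group means of the 36 features in the 15 groups, as log2(CPM + 0.5) minus the mean of the feature over all groups; rows are grouped by role and colours are cut at 3 in either direction. The column of old doxycycline cultures at 6 h in stem cell medium holds the highest value of 28 features, and the differentiation columns hold the highest values of Sesn2, Psat1, Ddit4, Slc1a4, Slc7a11 and Phgdh.

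In stem cell medium most of the set fell with time. Over the 3 times of old doxycycline cultures, Atf4 (chr15:80255184-80257541, plus strand, mm10) had 460, 456, 501 and 454 CPM at 6 h. It had 202, 205, 209 and 206 CPM at 18 h. It had 138, 143, 139 and 141 CPM at 48 h. The times did not overlap, and within 6 h old animal 3 stood above the other 3 animals. From the fit of 18 h against 6 h, the log2 fold change of Atf4 was -1.16 ± 0.04 (SE; adjusted p = 4.97e-09, edgeR quasi-likelihood test), and from 48 h against 18 h it was -0.54 ± 0.03 (adjusted p = 6.29e-08). In bulk RNA such as this, fewer cells of a type and less RNA per cell cannot be told apart.

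At 18 h against 6 h, 27 of the 36 features fell and 3 rose, while 61.3% of the 16678 genes tested changed in either direction, 30.7% downward and 30.6% upward. The median log2 fold change was -0.48 over the set and 0.005 over all genes tested. Of the transcription factors and their brake 8 of 9 features fell, of the amino acid enzymes 4 of 4, of the transporters 6 of 8, and of the serine and one-carbon enzymes 3 of 6. Atf3, which is induced early in stress, had 1.83, 1.94, 2.05 and 2.04 CPM at 18 h and 9.90, 9.06, 9.72 and 9.77 CPM at 6 h. Its log2 fold change of -2.27 ± 0.08 was the largest of the set (adjusted p = 6.93e-09). Chac1, an enzyme that degrades glutathione, had 9.02, 11.2, 11.1 and 9.51 CPM at 18 h and 28.9, 31.4, 35.5 and 27.2 CPM at 6 h. Its log2 fold change was -1.56 ± 0.10 (adjusted p = 3.89e-07). Ddit3, which encodes the transcription factor CHOP, fell by 1.14 ± 0.08 on the log2 scale, and Ppp1r15a, the phosphatase subunit that resets eIF2α, fell by 1.07 ± 0.06. The 3 features that rose were Ddit4, an inhibitor of mTORC1 signalling (0.50 ± 0.08), Atf5 (0.33 ± 0.05) and Eif2ak3 (0.20 ± 0.04). Phgdh and Psat1 did not pass the test, with log2 fold changes of 0.07 and -0.03.

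At 48 h against 18 h, 26 features fell and 1 rose, beside 52.3% of 16857 genes that changed (26.3% down, 26% up). Trib3 had 2.09, 2.13, 2.20 and 1.99 CPM at 48 h and 7.61, 9.98, 9.41 and 6.79 CPM at 18 h. Its groups stood apart, with a log2 fold change of -1.997 ± 0.12 (adjusted p = 3.39e-07). Next came Slc7a3 (-1.69), the cystathionine lyase Cth (-1.58), the stress-induced factor Nupr1 (-1.38) and Chac1 (-1.28 ± 0.09). Asns, which makes asparagine, had 74.3, 75.1, 76.1 and 81.9 CPM at 48 h and 131, 139, 138 and 142 CPM at 18 h, again with no overlap. Ddit4 alone rose, to 133 ± 12.2 CPM at 48 h against 96.7 ± 8.40 CPM at 18 h (0.46 ± 0.08, adjusted p = 0.00103). Slc7a5, the transporting light subunit of a leucine transporter, did not pass the test, with a log2 fold change of 0.003.

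Other genes of the pathway, which are not among the 35, were counted at 18 h against 6 h in the same way, beside 30.7% of all genes that fell and 30.6% that rose. Of 15 genes for eIF2 and its control, 11 fell and 2 rose, and of 16 further ATF4 targets 10 fell and 2 rose. Of 11 genes of the other branches of the unfolded protein response 7 fell and 3 rose, and the other one-carbon genes gave 6 falls and 6 rises among 19. Markers of other cell types moved over the same interval. The summed astrocyte markers were 370 to 411 CPM at 18 h against 277 to 295 CPM at 6 h, and those of the oligodendrocyte lineage were 2506 to 2812 CPM at 18 h against 1281 to 1442 CPM at 6 h. Neural stem cell markers summed to 6148 to 6713 CPM at 18 h against 7671 to 8309 CPM at 6 h. At 48 h the astrocyte markers summed to 646 to 696 CPM and the neural stem cell markers to 5531 to 5799 CPM. The part of these markers in the result was not tested. Since all 3 times carried doxycycline and no untreated culture at 6 or 48 h was used, time in culture and time on doxycycline cannot be told apart within this series of times.

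**Figure D2:**
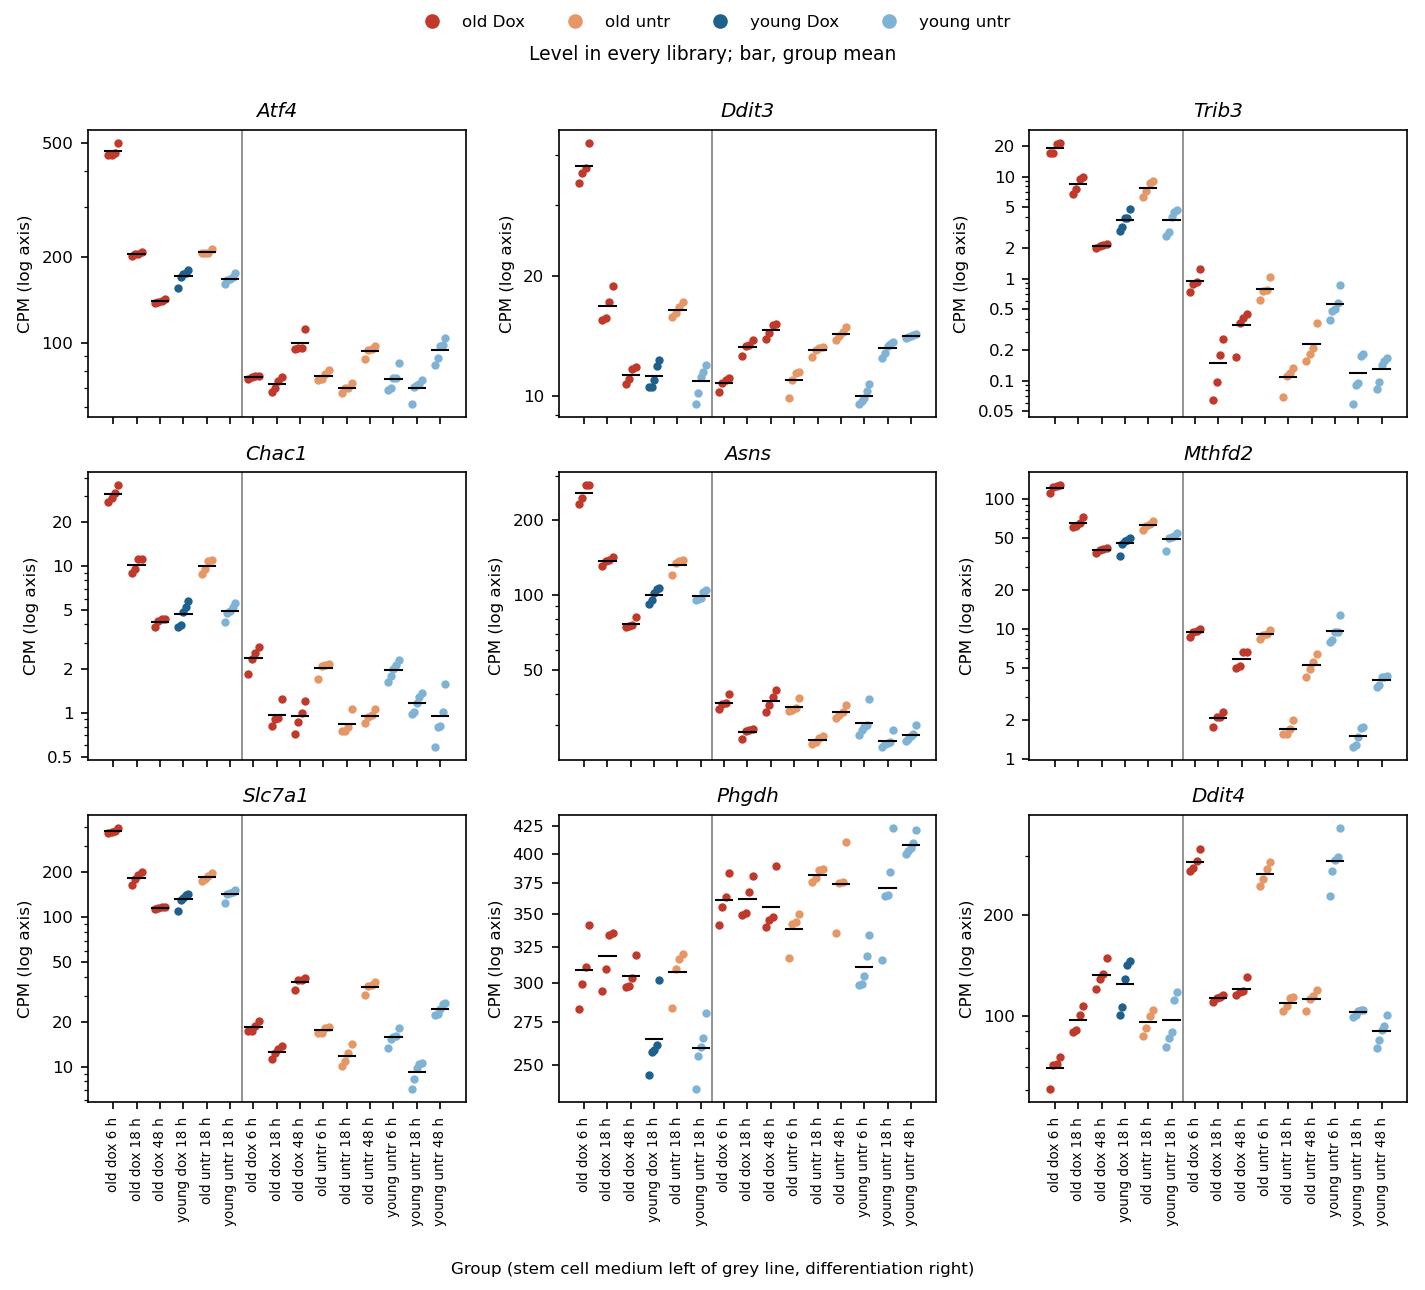
Levels of selected genes in every library (points, ordered by value within a group; CPM on a log axis) with the group means (bars), for the 15 groups. Atf4, Chac1, Trib3, Mthfd2 and Asns stand highest at 6 h in stem cell medium and lower in all differentiation groups than in any stem cell medium group, while Phgdh stays within a narrow band.

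In differentiation medium most of the set stood lower than in stem cell medium. In untreated old cultures at 18 h, 31 features fell and 2 rose, where 82% of 17013 genes changed in either direction, 40.5% of all tested downward and 41.5% upward. In untreated young cultures 27 fell and 5 rose, beside 82.6% of genes that changed (40.3% of all tested downward). The median log2 fold change of the set was -0.99 in old and -0.63 in young cultures, against 0.03 over all genes in either age. Since most genes moved between the media, a count of genes called says little without these shares.

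Among the transcription factors, Atf4 had 72.8, 67.3, 69.8 and 69.6 CPM in differentiating old cultures and 206, 207, 213 and 207 CPM in old cultures in stem cell medium. In young cultures it had 74.4, 70.3, 71.5, 72.1 and 61.4 CPM in differentiation medium and 168, 166, 176, 169.9 and 162 CPM in stem cell medium. No library of one medium reached the level of the other. The log2 fold changes were -1.54 ± 0.04 in old (adjusted p = 5.86e-13) and -1.22 ± 0.05 in young cultures (adjusted p = 4.43e-12). Trib3 was scarcely detected in differentiating old cultures, at 0.134, 0.119, 0.0694 and 0.110 CPM, against 6.37, 9.12, 8.57 and 7.14 CPM in stem cell medium. Its log2 fold change of -6.09 ± 0.19 was the largest of the set in old cultures. Ddit3 differed in sign between the ages: it fell in old cultures (-0.30 ± 0.06, adjusted p = 2.34e-04) and rose in young cultures (0.31 ± 0.07, adjusted p = 4.83e-04). The shorter Ddit3 feature, which overlaps Ddit3 and may share its reads, rose in young cultures by 0.47 and is uncertain for that reason.

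Among the effectors, the secreted factor Gdf15 (-4.25) and Chac1 (-3.55 ± 0.13) fell most in old cultures. Chac1 had 0.804, 1.06, 0.747 and 0.755 CPM in differentiating old cultures and 8.81, 11.1, 10.7 and 9.54 CPM in stem cell medium. Ddit4 rose modestly in old cultures, to 109 ± 4.92 CPM against 95.6 ± 7.59 CPM (0.22 ± 0.06, adjusted p = 0.00257), and its groups overlapped.

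Serine synthesis and the mitochondrial folate pathway moved differently. Mthfd2 had 1.54, 1.56, 1.70 and 1.98 CPM in differentiating old cultures and 57.2, 64.3, 62.3 and 67.5 CPM in stem cell medium. The media did not overlap, and the log2 fold change was -5.16 ± 0.08 in old (adjusted p = 8.71e-14) and -5.01 ± 0.12 in young cultures. Shmt2, the mitochondrial serine hydroxymethyltransferase, fell to 46.2 ± 2.37 CPM against 161 ± 5.56 CPM (-1.77 ± 0.04). Phgdh went the other way, with 386, 386, 379 and 376 CPM in differentiating old cultures and 284, 320.1, 316 and 309 CPM in stem cell medium. It did not overlap between the media and rose by 0.35 ± 0.04 in old (adjusted p = 4.09e-06) and by 0.55 ± 0.06 in young cultures (adjusted p = 2.44e-06). Psat1 fell slightly, by 0.42 ± 0.05 on the log2 scale in old and by 0.27 ± 0.05 in young cultures. Psph rose by 0.22 ± 0.04 in young cultures and did not pass the test in old ones.

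Of the amino acid enzymes, Asns fell to 26.1 ± 0.937 CPM against 133 ± 8.25 CPM in old cultures (-2.31 ± 0.05) and to 25.9 ± 1.57 CPM against 99.4 ± 4.18 CPM in young cultures (-1.90 ± 0.04). Among the transporters Slc7a1 had 10.1, 10.99, 14.1 and 12.3 CPM in differentiating old cultures and 174, 190.5, 181 and 198 CPM in stem cell medium. Its log2 fold change was -3.93 ± 0.10, and Slc7a3 followed at -3.75 ± 0.21. Slc7a11, which imports cystine, changed little at this time (-0.24 ± 0.09, adjusted p = 0.0262), and its groups overlapped. The glutamine transporter Slc38a2 fell by 1.68 ± 0.04 on the log2 scale in old and by 1.95 ± 0.06 in young cultures.

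**Figure D3:**
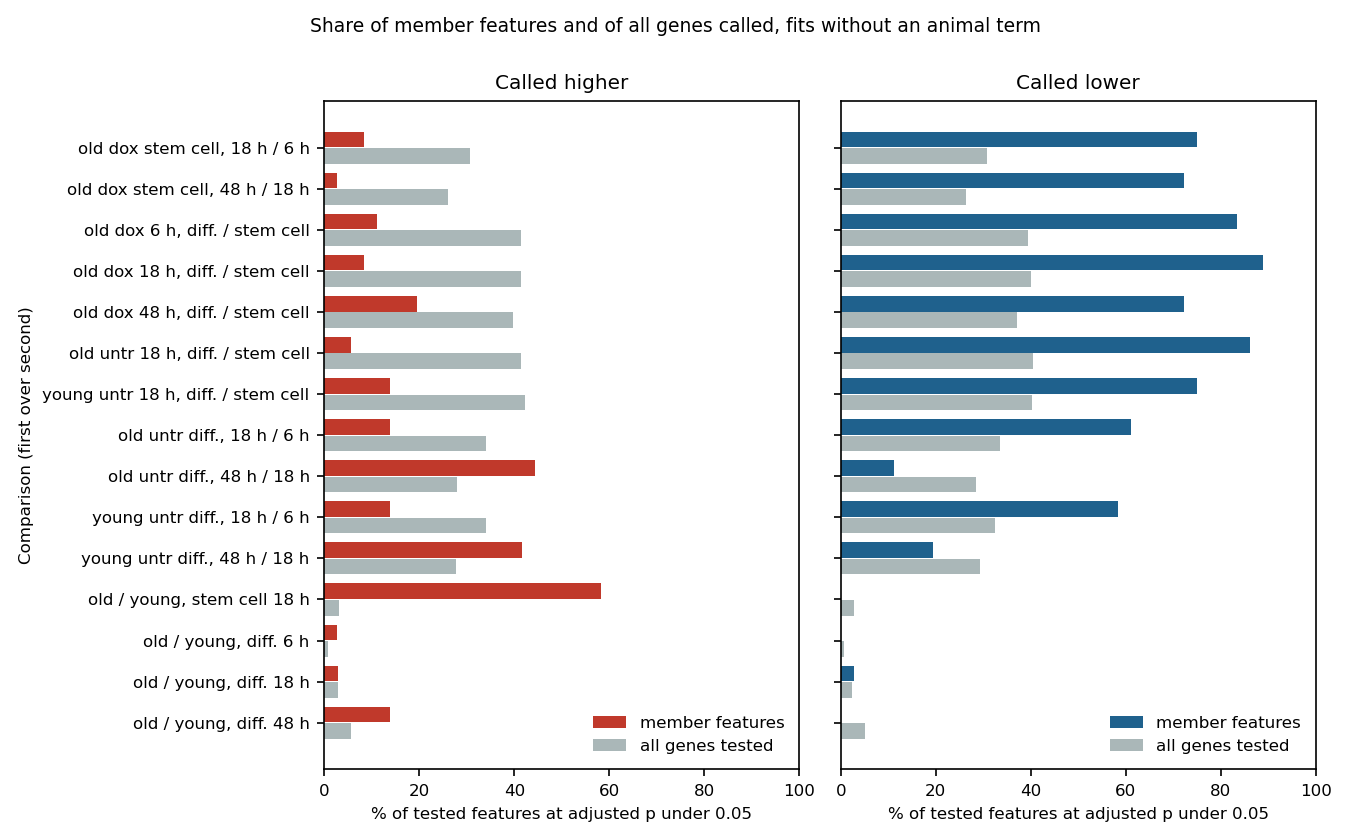
Share of the 36 features and of all tested genes called higher or lower (percent) in 15 comparisons without an animal term. The features stand above the share of all genes among the falls with time in stem cell medium and among the falls in differentiation against stem cell medium, and among the rises at 48 h against 18 h of differentiation and in old against young cultures in stem cell medium. They also stand above it among the falls at 18 h against 6 h of differentiation in both ages. The same holds, by few features, among the rises with age at 48 h of differentiation.

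Other genes of the pathway were counted in old cultures at 18 h, where 40.5% of all genes fell and 41.5% rose. In this comparison 11 of 15 genes for eIF2 and its control fell and 0 rose at the same threshold, among them the eIF2 subunits Eif2s1 (-1.66) and Eif2s2 (-1.33). Of 19 other one-carbon genes 12 fell, among them the cytosolic enzyme Shmt1 (-3.11) and the thymidylate synthase Tyms (-2.86), and 7 rose. Of 18 other amino acid transporters 12 rose and 5 fell, the rises led by the glutamate transporter Slc1a1 (3.84), the glycine transporter Slc6a9 (2.29) and Slc38a3 (2.15). Of 14 further ATF4 targets 9 fell and 4 rose, and of 11 genes of the other unfolded protein response branches 8 fell and 2 rose. The summed astrocyte markers were 3124 to 3476 CPM in differentiating old cultures against 419 to 457 CPM in stem cell medium. Markers of the oligodendrocyte lineage summed to 3386 to 3854 CPM against 2495 to 2922 CPM. In young cultures the astrocyte markers summed to 2981 to 3924 CPM in differentiation medium against 413 to 584 CPM in stem cell medium, and the part of these markers in the result was not tested.

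At 6 h in differentiation medium against 18 h in stem cell medium, 29 features fell and 4 rose in untreated old cultures (75.5% of genes changed, 37.4% down and 38.2% up), and 24 fell and 5 rose in young cultures (74.9% changed, 36.5% down and 38.4% up). Ddit4 had 274, 255, 244 and 288 CPM in old cultures at 6 h of differentiation, and no old untreated library in stem cell medium reached these levels. It rose by 1.48 ± 0.07 in old and by 1.60 ± 0.14 in young cultures. Sesn2, a sensor of leucine that restrains mTORC1, had 232, 211, 209.7 and 208 CPM at 6 h of differentiation and 147, 144, 151 and 133 CPM in stem cell medium, and rose by 0.59 in old and 0.81 in young cultures. The neutral amino acid transporter Slc1a4 rose by 0.47 in old and 0.66 in young cultures. In doxycycline cultures of old animals, the same 6 h of differentiation could be set against 6 h in stem cell medium. Cells were moved to differentiation medium 18 h after plating, so time since plating may differ in this comparison. There 30 features fell and 4 rose (80.7% of genes changed, 39.3% downward), and Ddit4 was at 288 ± 19.9 CPM against 69.6 ± 6.501 CPM (2.07 ± 0.08). In untreated old cultures the astrocyte markers summed to 854 to 925 CPM at 6 h of differentiation against 419 to 457 CPM in stem cell medium, those of the oligodendrocyte lineage to 3091 to 3532 CPM against 2495 to 2922 CPM and those of neuroblasts and neurons to 94.0 to 120.6 CPM against 29.1 to 42.8 CPM. In the doxycycline cultures the astrocyte markers summed to 817 to 879 CPM against 277 to 295 CPM at 6 h. The part of these markers in the result was not tested.

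At 18 h against 6 h of differentiation, 22 features fell and 5 rose in old cultures (67.7% of genes changed, 33.6% down and 34.1% up), and 21 fell and 5 rose in young cultures (66.5% changed, 32.4% down and 34% up). With animals as blocks 8 features rose in young cultures (68% of genes changed), Stc2 (0.24), Aldh1l2 (0.12) and Slc7a11 (0.18) joining the other 5. Ddit4 fell to 109 ± 4.92 CPM against 265 ± 19.5 CPM in old cultures (-1.27 ± 0.05), and Sesn2 fell to 93.0 ± 5.95 CPM against 215 ± 11.4 CPM (-1.20 ± 0.05). Mthfd2 fell further, by 2.40 on the log2 scale in old and by 2.67 in young cultures. The astrocyte markers summed to 3124 to 3476 CPM at 18 h against 854 to 925 CPM at 6 h in old cultures, and their part in the result was not tested.

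At 48 h against 18 h of differentiation, 16 features rose and 4 fell in old cultures (56.5% of genes changed, 28% up and 28.5% down), and 15 rose and 7 fell in young cultures (56.9% changed, 27.7% up and 29.2% down). The share called in either direction is near that of all genes. Slc7a11 had 134, 139, 139 and 148 CPM at 48 h and 71.9, 79.3, 84.1 and 98.6 CPM at 18 h in old cultures. The times did not overlap, and the rise was 0.72 ± 0.09 in old (adjusted p = 5.72e-05) and 0.74 ± 0.11 in young cultures (adjusted p = 2.64e-04). Mthfd2 rose to 5.27 ± 0.918 CPM against 1.70 ± 0.202 CPM in old cultures (1.61 ± 0.14), a level still far under the 62.8 ± 4.32 CPM of old untreated cultures in stem cell medium. Slc7a1 rose by 1.51 ± 0.10 and 1.38 ± 0.10 in old and young cultures, and Atf4 by 0.41 ± 0.04 and 0.42 ± 0.06. Pck2, the mitochondrial phosphoenolpyruvate carboxykinase, fell by 0.70 ± 0.05 and 0.76 ± 0.07 on the log2 scale, and Slc1a4 fell by 0.72 ± 0.07 and 0.63 ± 0.13. The summed astrocyte markers were 5468 to 6664 CPM at 48 h against 3124 to 3476 CPM at 18 h in old cultures, and those of the oligodendrocyte lineage were 5331 to 6251 CPM against 3386 to 3854 CPM. Their part in the result was not tested.

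With doxycycline at 48 h, differentiation against stem cell medium gave 26 falls and 7 rises in old cultures (76.9% of genes changed, 37.1% downward), and at 18 h it gave 32 falls and 3 rises (81.5% changed, 40% downward). Slc7a11 rose most at 48 h, with 118, 138, 133 and 142 CPM in differentiation medium and 58.6, 60.6, 59.7 and 65.5 CPM in stem cell medium (1.15 ± 0.06). Cth rose as well, by 0.68. Gdf15 (-4.41) and Mthfd2 (-2.76) fell most. At 48 h the astrocyte markers summed to 4750 to 5672 CPM in differentiation medium against 646 to 696 CPM in stem cell medium, and those of the oligodendrocyte lineage to 5875 to 7401 CPM against 2570 to 2664 CPM. At 18 h the astrocyte markers summed to 2764 to 3165 CPM against 370 to 411 CPM. The part of these markers in the result was not tested.

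Age marked the set in stem cell medium. In untreated cultures at 18 h, 21 of the 36 features were higher in old than in young cultures and 0 were lower, where 5.95% of 16701 genes changed with age and 3.09% were higher in old cultures. The log2 fold changes of the 21 features ran from 0.17 to 1.05. The median of the set was 0.30, against -0.01 over all genes tested, 31 features had a positive sign, and in 22 features the groups did not overlap. At an unadjusted p under 0.05, 27 features differed, and DESeq2 called 23 higher and 0 lower (12.8% of genes changed). No share of all genes is given beside the counts by sign, by overlap and by unadjusted p, so they describe the set alone.

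By role, 6 of 9 features for transcription factors and their brake were higher in old cultures, 5 of 6 serine and one-carbon enzymes, 3 of 4 amino acid enzymes, 3 of 6 effectors, 4 of 8 transporters and 0 of 3 genes for eIF2α kinases and their opposing phosphatase subunit. Atf4 had 206, 207, 213 and 207 CPM in old cultures and 168, 166, 176, 169.9 and 162 CPM in young cultures. All old libraries lay above all young libraries, with a log2 fold change of 0.30 ± 0.03 (adjusted p = 9.51e-04). Ddit3 had 15.7, 16.1, 17.2 and 16.7 CPM in old cultures and 11.2, 10.2, 11.97, 9.56 and 11.5 CPM in young cultures, a log2 fold change of 0.58 ± 0.07 (adjusted p = 0.00201). Trib3 had 6.37, 9.12, 8.57 and 7.14 CPM in old cultures and 3.99, 2.62, 4.71, 4.48 and 2.86 CPM in young cultures. It gave the largest change with age, at 1.05 ± 0.18 (adjusted p = 0.0108), and did not overlap.

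Chac1 had 8.81, 11.1, 10.7 and 9.54 CPM in old cultures and 4.95, 5.28, 5.62, 4.82 and 4.15 CPM in young cultures. The groups were separate, with a log2 fold change of 1.004 ± 0.10 (adjusted p = 9.51e-04). Nupr1 was higher by 0.87 ± 0.16 (adjusted p = 0.0139) and Gdf15, a secreted stress factor, by 0.56 ± 0.07 (adjusted p = 0.00258). Asns had 120.4, 137, 138 and 135 CPM in old cultures and 95.9, 96.4, 102.6, 105 and 96.9 CPM in young cultures (0.40 ± 0.05, adjusted p = 0.00190). Cth was higher by 0.69 ± 0.15 (adjusted p = 0.0209), and Bcat1, the cytosolic transaminase of branched-chain amino acids, by 0.42.

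Among transporters, Slc7a5 had 250.4, 311, 299 and 292 CPM in old cultures and 179, 192, 199, 202 and 190.0 CPM in young cultures. Every old library lay above every young one (0.57 ± 0.06, adjusted p = 9.80e-04). Its partner subunit Slc3a2 was higher by 0.21. In the serine pathway Phgdh was at 307 ± 16.3 CPM in old and 260 ± 15.9 CPM in young cultures (0.23 ± 0.05, adjusted p = 0.0197), and Mthfd2 was higher by 0.34 (adjusted p = 0.0417). Psat1 did not pass the test, at 489 ± 23.7 CPM in old and 447 ± 22.6 CPM in young cultures (0.12 ± 0.05, adjusted p = 0.153). Slc7a11 (0.19, adjusted p = 0.143), Pck2 (0.33, adjusted p = 0.0739) and Ddit4 (-0.03, adjusted p = 0.904) did not pass it either.

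The number of features called rested partly on single animals: 12 were called higher without young animal 1 and 13 without old animal 3. The calls of Atf4, Ddit3, Trib3, Nupr1, Chac1, Gdf15, Asns, Bcat1, Shmt2, Psph, Slc7a1 and Slc7a5 were kept whichever animal was left out, while 9 others lost theirs in at least 1 such fit, Phgdh, Cth and Mthfd2 among them. With sex as a covariate 17 were called. No share of all genes is given for this fit or for the fits that left out an animal. In the doxycycline cultures of the same animals at 18 h, which are other libraries, 24 features were higher in old and 0 lower (8.24% of genes changed, 3.71% higher). Of these, 19 were called in both sets of libraries, which is 90.5% of the untreated and 79.2% of the doxycycline calls. Between the untreated and doxycycline libraries of the same animal, deviations from group means correlated by medians of 0.796 (old) and 0.717 (young). Differences between single animals therefore return in both sets, and the overlap is no test of age in other animals. The log2 fold changes in the doxycycline cultures were 0.26 for Atf4, 0.57 for Ddit3, 1.11 for Chac1 and 1.17 for Trib3. Gdf15 and Sesn2 passed the test in untreated libraries only, and Atf3, Cebpg, Pck2, Psat1 and Slc7a11 in doxycycline libraries only, without a test of these differences.

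**Figure D4:**
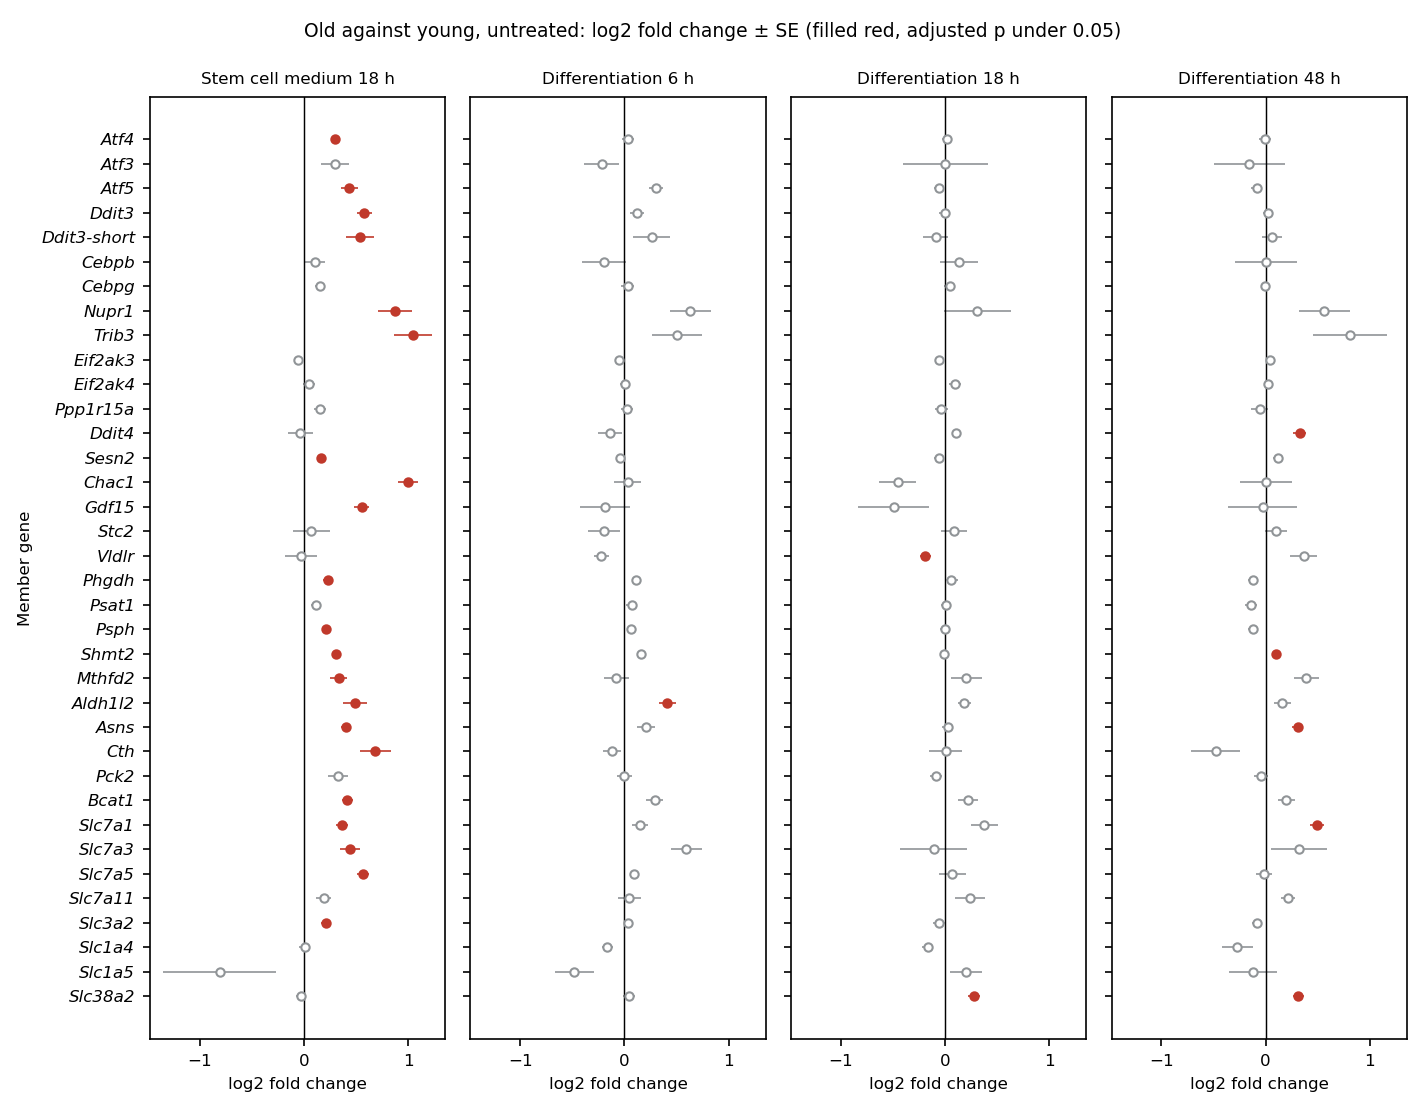
Log2 fold change, old over young, of the 36 features in untreated cultures, for stem cell medium (18 h) and for 6, 18 and 48 h of differentiation, with SE bars; filled points passed an adjusted p of 0.05. In stem cell medium 21 features stand to the right of 0 as filled points, where 3.09% of all genes were called higher. At 6, 18 and 48 h of differentiation 1, 1 and 5 features do, and 5.63% of all genes were called higher at 48 h. At 18 h 1 feature stands to the left as a filled point.

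Other genes of the pathway were counted beside the 5.95% of all genes that changed with age and the 3.09% that were higher. Of 15 genes for eIF2 and its control 1 was higher (Eif2s2, 0.14), and of 11 genes of the other unfolded protein response branches 0 passed the edgeR test in either direction. Of 18 other amino acid transporters 3 were higher, namely Slc1a1 (0.54), Slc6a9 (0.46) and Slc7a2 (0.20). Of 16 further ATF4 targets Jdp2 (0.40) and Eif4ebp1 (0.31), a repressor of translation, were higher and Tnfrsf10b (-0.44) was lower. Among the one-carbon genes Cbs (-0.50), which makes cystathionine, was lower. The sums of 7 of the 8 marker lists overlapped between the ages. Neural stem cell markers summed to 6233 to 7012 CPM in old and 6490 to 7244 CPM in young cultures, astrocyte markers to 419 to 457 and 413 to 584 CPM, and oligodendrocyte lineage markers to 2495 to 2922 and 2441 to 2940 CPM. Neuroblast and neuron markers summed to 29.1 to 42.8 CPM in old and 23.9 to 32.9 CPM in young cultures. The exception was the list of mural cells and fibroblasts, none of whose 6 markers reached a mean of 1 CPM, with sums of 0.547 to 0.684 CPM in old and 0.819 to 1.31 CPM in young cultures. Its part in the result was not tested.

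In differentiation medium few of the features differed with age. At 6 h, Aldh1l2, a mitochondrial folate enzyme, was higher in old cultures (57.4 against 43.0 CPM, 0.41 ± 0.08) and 0 were lower, where 1.43% of genes changed. At 18 h, Slc38a2 was higher (0.28) and Vldlr, a lipoprotein receptor, was lower (-0.19), where 5.19% of genes changed and 35 of the 36 features were tested. At 48 h, 5 features were higher and 0 lower, where 10.6% of genes changed and 5.63% were higher: Slc7a1 (0.49 ± 0.07), Ddit4 (0.33), Slc38a2 (0.32), Asns (0.31) and Shmt2 (0.10). Atf4 was at 69.9 ± 2.25 CPM in old and 69.9 ± 5.00 CPM in young cultures at 18 h of differentiation (0.01 ± 0.05, adjusted p = 0.895). At 48 h the oligodendrocyte lineage markers summed to 5331 to 6251 CPM in old and 3833 to 4890 CPM in young cultures, and neural stem cell markers to 6343 to 7081 CPM in old and 7489 to 8732 CPM in young cultures. Neural stem cell markers also had lower sums in old cultures at 6 h (5862 to 5992 CPM, against 6260 to 6672 CPM in young) and at 18 h (7256 to 7808 CPM, against 7957 to 8494 CPM in young), with no overlap. Neuroblast and neuron markers had higher sums in old cultures at 6 h, at 94.0 to 120.6 CPM against 68.5 to 89.5 CPM in young, again with no overlap. The part of these markers in the result was not tested. The lone calls at 6 and 18 h rested on single animals. The Aldh1l2 count at 6 h was 0 without old animal 2, 3 or 4 or young animal 1 or 2, the higher count at 18 h was 0 without old animal 3, and the lower count at 18 h was 0 without old animal 2, 3 or 4 or young animal 2, 3 or 5.

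Whether the effect of differentiation at 18 h differed with age was tested as an interaction. It was more negative in old cultures for 6 features and more positive for 0, where 0.818% of genes passed. DESeq2 gave 13 and 1, where 4.6% of genes passed, the positive one being Slc38a2 (0.29). The 6 features called by edgeR were Chac1 (-1.48 ± 0.18, adjusted p = 3.35e-04), Ddit3 (-0.60 ± 0.09, adjusted p = 0.00285), Atf5 (-0.52 ± 0.10, adjusted p = 0.0208), Asns (-0.40 ± 0.07, adjusted p = 0.0130), Shmt2 (-0.34 ± 0.06, adjusted p = 0.0130) and Atf4 (-0.30 ± 0.06, adjusted p = 0.0303). Chac1 stood at 0.840 ± 0.146 CPM in differentiating old and 1.16 ± 0.165 CPM in differentiating young cultures, so the age order in stem cell medium was not seen there. Leaving out young animal 1 left 2 features, and leaving out old animal 3 or old animal 4 left 3 each. Chac1 and Ddit3 passed whichever animal was left out. The old and young cultures in stem cell medium enter both this test and the comparison of ages above.

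Doxycycline effects on the set were mostly small. Pou5f1, which encodes Oct4, ran from 0.168 to 1.38 CPM over the 7 doxycycline groups and from 0 to 0.364 CPM over the 8 untreated groups, cassette and endogenous reads not being separated. In old cultures at 18 h of stem cell medium the medians with and without doxycycline were 253 and 257 CPM for Sox2 and 8.51 and 8.06 CPM for Klf4, with overlapping libraries. Myc had medians of 161 CPM with and 176 CPM without doxycycline there, and its libraries did not overlap. In each of the 5 comparisons of doxycycline with untreated cultures at matched age, medium and time, 0 of the 36 features passed the edgeR test, where at most 0.0361% of genes did. The shares of genes that passed were 0.018% in old and 0.0361% in young cultures in stem cell medium, and 0.0294%, 0.0118% and 0.0296% at 6, 18 and 48 h of differentiation in old cultures. The number of features with an unadjusted p under 0.05 was 2 and 4 in stem cell medium (old and young) and 2, 4 and 5 at the 3 times of differentiation. No share of all genes is given beside these counts, so they describe the set alone. DESeq2 called 0 features in each comparison, where it called 0.961%, 1.69%, 0.713%, 0.326% and 0.549% of genes in the same order. In stem cell medium at 18 h the log2 fold changes lay between -0.21 and 0.26 in old and between -0.16 and 0.36 in young cultures. At 48 h of differentiation in old cultures they ran wider, from -0.58 (Atf3) to 0.62 (Trib3), both genes with means under 1 CPM. Cebpb was at -0.47 there. Atf4 was at 202, 205, 209 and 206 CPM with doxycycline and 206, 207, 213 and 207 CPM without it in old cultures, and these ranges overlapped.

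Each animal gave both a doxycycline and an untreated culture, and with animals as blocks some features passed. In young cultures in stem cell medium 3 features rose and 4 fell, where 13.6% of genes changed. Ddit4 had 106, 128, 100.2, 142 and 145 CPM with doxycycline and 89.0, 85.7, 80.6, 117.4 and 112 CPM in the same young animals without it. It was higher with doxycycline in 5 of 5 animals (0.36 ± 0.04, adjusted p = 1.97e-04). Vldlr had 81.8, 86.2, 64.9, 114 and 116.6 CPM with doxycycline and 68.7, 65.2, 61.9, 96.7 and 99.6 CPM without it, again higher in 5 of 5 animals (0.24 ± 0.04, adjusted p = 0.00105). Atf5 rose by 0.14. Mthfd2 (-0.12), Slc7a1 (-0.11) and Psat1 (-0.10 ± 0.03, adjusted p = 0.0231) were lower in 5 of 5 animals, and Slc38a2 (-0.13) in 4 of 5. Between 2 and 3 features rose and between 1 and 4 fell when 1 young animal was left out of this fit. The falls numbered 1 without animal 2 or animal 3 and 2 without animal 4.

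In old cultures in stem cell medium 0 features rose and 2 fell with the blocks, where 11.2% of genes changed. These were Slc7a5 (-0.10 ± 0.02, adjusted p = 0.00251) and Slc1a4 (-0.07 ± 0.02, adjusted p = 0.0286), both lower in 4 of 4 animals. The astrocyte markers summed to 370 to 411 CPM with doxycycline against 419 to 457 CPM without it in these cultures, and their part in the result was not tested. Slc7a5 passed whichever animal was left out, and Slc1a4 passed without old animal 3 and not without any other; the falls numbered 1 to 3. In differentiation medium Pck2 rose at 6 h (0.15, adjusted p = 0.0269; 3.67% of genes changed), 0 features passed at 18 h (0.883% of genes changed), and at 48 h Vldlr rose (0.25 ± 0.04, adjusted p = 0.00137) and Cebpb, a C/EBP partner of ATF4, fell (-0.46 ± 0.10, adjusted p = 0.0203; 4.15% of genes changed). Without old animal 2, 4 features rose and 2 fell at 48 h. The Pck2 call at 6 h was kept without old animal 3 and lost without each of the others.

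Whether doxycycline acted differently in the ages was tested as an interaction in stem cell medium, and 0 features passed without blocks (0% of genes did). With blocks the difference, old minus young, was -0.34 ± 0.06 for Ddit4 (adjusted p = 0.00979) and 0.18 ± 0.04 for Mthfd2 (adjusted p = 0.0314), where 3.43% of genes passed. For the difference of doxycycline effects between media in old cultures at 18 h, 0 features passed with or without blocks (0.102% and 0.00566% of genes did). At an unadjusted p under 0.05 there were 5 with blocks and 1 without, with no share of all genes given beside them. DESeq2 called 0 features (0.852% of genes).

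**Figure D5:**
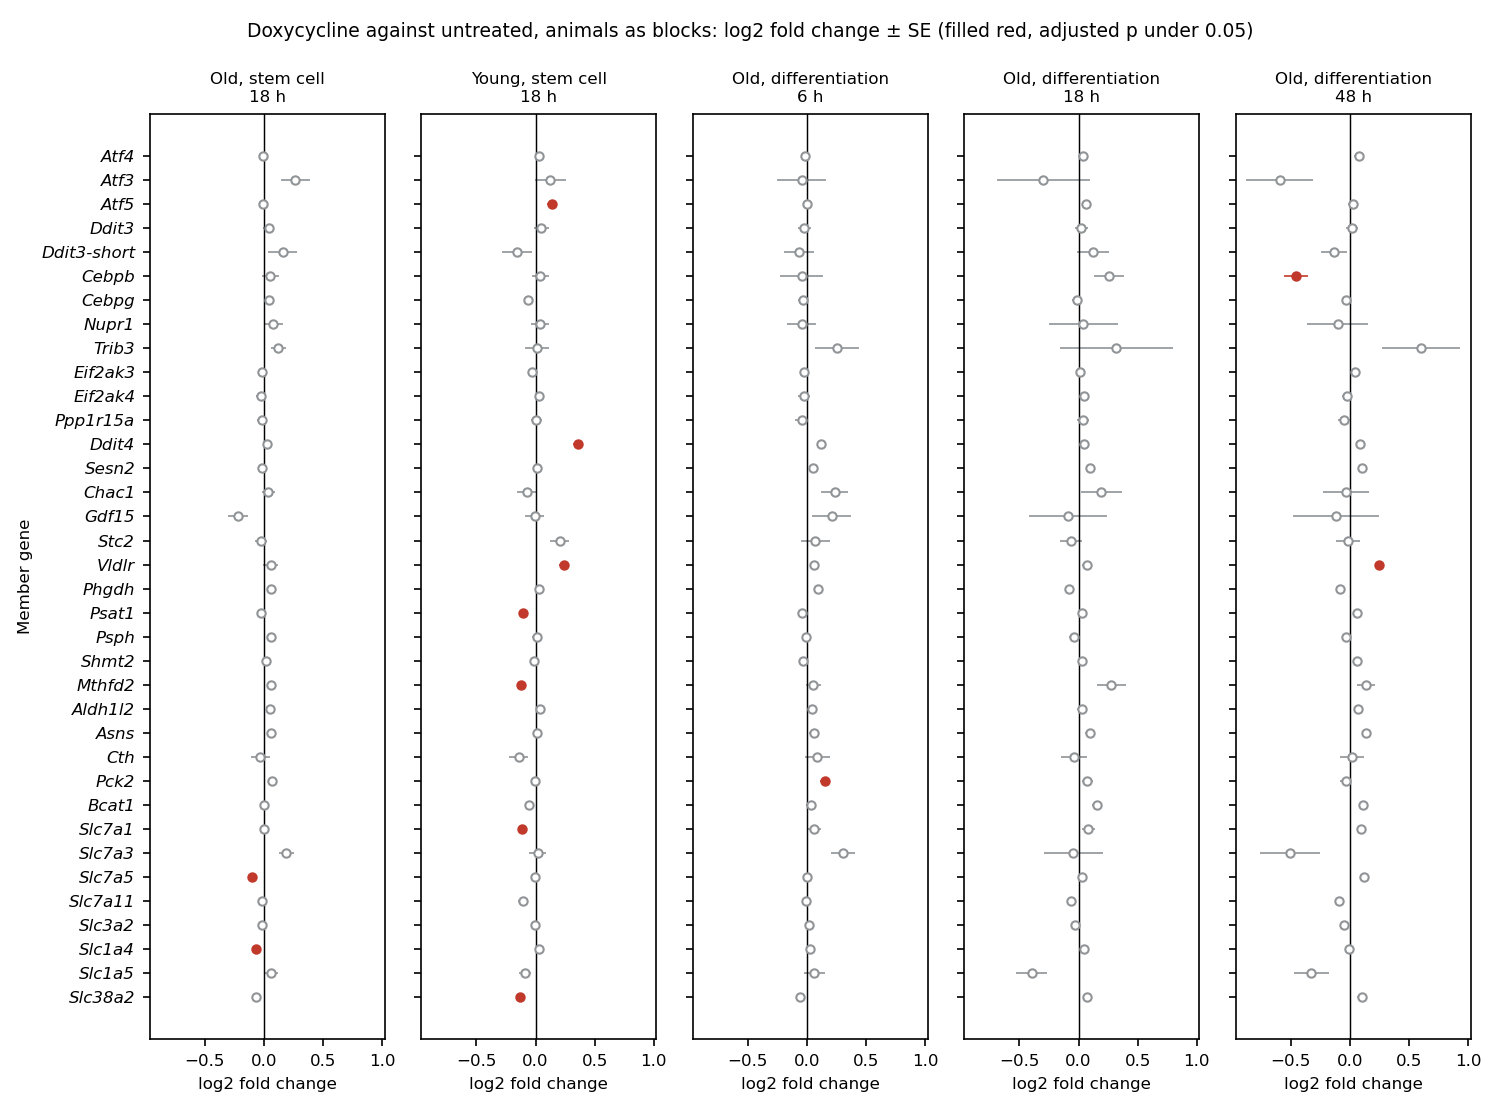
Log2 fold change, doxycycline over untreated, of the 36 features in the 5 matched comparisons from the fit with animals as blocks, with SE bars; filled points passed an adjusted p of 0.05. In young cultures in stem cell medium Ddit4 and Vldlr stand to the right at 0.36 and 0.24. In old cultures at 48 h of differentiation Cebpb (-0.46) and Vldlr (0.25) are filled, and unfilled points reach -0.59 (Atf3) and 0.60 (Trib3). Most other points lie close to 0.

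The features were also compared by how their group means tracked those of Atf4. Over the 15 group means of log2(CPM + 0.5), Pearson's r with Atf4 was highest for Cebpg, a C/EBP partner of ATF4 (0.99), Slc3a2 (0.98), Ppp1r15a (0.97) and Asns (0.97). It was lowest for Phgdh (-0.61) and Ddit4 (-0.56). The points share animals and differ mostly by medium and time, so these values describe the groups of this study only.

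Slc1a5, a glutamine and neutral amino acid transporter, differed widely between animals of the same age. It had 11.5, 4.33, 3.85 and 20.9 CPM in untreated old cultures in stem cell medium and 8.98, 18.3, 20.3, 21.3 and 19.1 CPM in young cultures, and the ranges overlapped (-0.81 ± 0.54, adjusted p = 0.418). The same order of old animals returned at 6 h with doxycycline, at 24.0, 10.8, 8.70 and 41.9 CPM. Old animal 4 lay above the group mean in 10 of its 10 libraries, and old animals 2 and 3 did so in 0 of 10 each.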

How the data were processed

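RNA-seq counts per gene were analysed for 65 libraries. Per the submitters' processing notes, reads were handled with Trim Galore 0.6.6, STAR 2.7.10b, SAMtools and Subread on mouse build mm10. The deposited table holds raw integer counts for 31057 features, of which 46 had no entry in the GENCODE M21 annotation used for symbols and positions. Among the smallest counts 75644 are 2 and 19963 are 1, so a fragment usually adds both its mates. A deposited table of variance-stabilised values on a log2 scale was not used here. Per the labels' protocols the libraries came from a stranded poly(A) kit and were sequenced together. Totals ran from 56.5 M to 116.8 M counts (median 86.7 M), which limits precision mainly for genes below about 1 CPM.

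Each comparison was fitted on its own groups with edgeR 4.0.16 in R 4.3.3 (TMM scaling, low genes dropped by filterByExpr at a minimum count of 10, quasi-likelihood test with robust dispersions, Benjamini-Hochberg adjustment over all genes tested, threshold 0.05). SE is the log2 fold change divided by the root of F. Alternatives were DESeq2 1.42.0, its size factors in edgeR, no filter, animals as blocks, sex as a covariate and leaving out each animal; leaving out animals within the blocked fits, and comparing ages in doxycycline libraries, were chosen after seeing the data. The fits were tested on simulated data. Promoter windows came from RefSeq. The genes, lists and tests were chosen with earlier results of these data known. Values in every library are given for Atf4, Ddit3, Atf3, Trib3, Chac1, Asns, Phgdh, Psat1, Mthfd2, Slc7a11 and Ddit4 where a comparison turns on them, and up to 6 called genes per direction with the largest change and a mean of at least 1 CPM are named; Slc1a5, Sesn2, Slc7a1, Slc7a5 and Vldlr were also given by library after their values were seen.

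Within an age the labels give each animal 1 replicate number, so libraries of an age are paired by animal. Over 18 comparisons and 11823 genes, deviations from group means correlated by medians of 0.524 to 0.796 between libraries of the same animal (lowest pair 0.239) and by medians of at most -0.201 between different animals. Deviations from a group mean cancel within the group, which by itself draws the values between different animals below 0 where those of the same animal are positive. The fits without blocks are the stated ones, and blocked values are printed where they move a count of calls by over 1.5 times. Some results for single one-carbon genes are not reported here.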

Additional observations from a re-analysis of the deposited data

Results flagged for a closer look

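In groups of 4 or 5 libraries, single libraries far from the rest were sought by Dixon's criterion. They were found in 10 of the 165 gene and group combinations, near the share of about 1 in 20 that chance gives. For Atf4 these were old animal 3 at 6 h in stem cell medium with doxycycline (501 CPM), old animal 3 at 18 h in stem cell medium without it (213 CPM) and old animal 2 at 48 h of differentiation with doxycycline (112 CPM). For Atf3 they were old animal 1 at 6 h of differentiation with doxycycline (0.790 CPM) and old animal 4 at the same time without it (0.851 CPM). Chac1 stood apart in old animal 4 at 6 h of differentiation without doxycycline (1.69 CPM). Asns stood apart in young animal 3 at 6 h (38.1 CPM) and young animal 2 at 18 h of differentiation (28.6 CPM). Phgdh did so in old animal 2 at 48 h of differentiation with doxycycline (389 CPM), and Slc7a11 in old animal 4 at 6 h of differentiation with doxycycline (72.4 CPM).

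The effect of differentiation at 18 h differed between old and young cultures, by the interaction test, for Chac1 (-1.48), Ddit3 (-0.60), Atf5 (-0.52), Asns (-0.40), Shmt2 (-0.34) and Atf4 (-0.30); the values are log2 fold changes, old minus young.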

How the results depend on the processing

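No sign of a called value turned under any setting run. With animals as blocks, which also applies to comparisons of media and times within an age, doxycycline calls (higher and lower) went to 0 and 2 in old and 3 and 4 in young cultures in stem cell medium, to 1 and 0 at 6 h and 1 and 1 at 48 h of differentiation. They went to 1 and 1 for the doxycycline by age interaction, and rises in young cultures at 18 h against 6 h of differentiation to 8 (from 5). The block changed no other count by over 1.5 times. No paired analysis was possible for old against young because the ages are different animals. In these, DESeq2 gave 5 higher at 6 h, 2 higher and 2 lower at 18 h and 8 higher at 48 h of differentiation. At 6 h no filter gave 2 and sex as a covariate 0. No share of all genes is given beside these counts for the ages, so they describe the set alone. For the medium by age interaction DESeq2 gave 1 and 13.

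Leaving out 1 animal gave 12 to 22 features higher with age in stem cell medium, 0 to 3 at 6 h, 0 to 2 higher and 0 to 2 lower at 18 h of differentiation, 0 to 1 and 2 to 8 for the medium by age interaction, and 0 to 1 and 0 to 1 for doxycycline in young cultures, each 1 without animal 5. With blocks as well, doxycycline in old cultures gave 0 to 1 higher and 1 to 3 lower, in young cultures 2 to 3 and 1 to 4, at 6 h of differentiation 0 to 1 higher, and at 48 h 1 to 4 higher and 0 to 2 lower. Why these counts moved was not tested, and no share of all genes is given beside them. Of the values for single genes, 3589 kept their side of the threshold, 47 passed it and 155 fell short. The simulated counts had the same dispersion in every gene and no animal effects, and only genes with many counts were changed. In these data, changes of 0.3 on the log2 scale were called in 30% of changed genes for the ages in stem cell medium. For the media in old cultures 24% were called, and changes of 0.6 were called in 100% in both. Unchanged genes were called 4 times for the ages and 5 times for the media. These shares do not say how often such changes would be called in the real libraries. Smaller changes also passed in the real libraries, such as that of Shmt2 with age at 48 h of differentiation (0.10). Trib3, Atf3 and Gdf15 in differentiation medium rest on few counts.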

Other observations

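Deviations of single libraries from their group means, taken over all 65 libraries, tracked those of Atf4 most closely for Psat1 (Pearson's r = 0.59) and Asns (0.51), and ran opposite to it for Slc7a11 (-0.46) and Vldlr (-0.44). Libraries of one animal share that animal, so these values are a description and were not tested.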
